A study of Mus musculus with 82 samples.

Results

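The genes described here are 32 mouse genes of glycolysis and nutrient uptake, of the 21823 genes that all 3 deposited count tables share. They were taken by gene symbol, and all 32 were found and passed the filter on low counts in every fit. By role, 4 bring glucose into the cell or trap it there (Slc2a1, Slc2a3, Hk1 and Hk2), 8 act in the upper steps of glycolysis or control them (Gpi1, Pfkl, Pfkm, Pfkp, Pfkfb3, Aldoa, Aldoc and Tpi1), and 6 act in the lower steps (Gapdh, Pgk1, Pgam1, Eno1, Eno3 and Pkm). A further 5 decide the fate of pyruvate and lactate (Ldha, Ldhb, Slc16a1, Slc16a3 and Pdk1), 5 carry amino acids (Slc7a5, Slc3a2, Slc1a5, Slc38a1 and Slc38a2), 1 takes up iron (Tfrc) and 3 are regulators (Hif1a, Myc and Mtor).

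The libraries hold RNA of ovalbumin-specific T cells, transferred into wild-type mice and sorted back from spleen and lymph nodes: OT-I cells carry a receptor of the CD8 lineage and OT-II cells one of the CD4 lineage, and each recipient got both populations. Recipients were then given saline, plain ovalbumin (OVA, 5 µg) or synthetically glycosylated ovalbumin (pGal-OVA, pGal for short, stated as 5 µg in one place and as the molar equivalent of the OVA in another), and cells were collected 4 days after that. In the prophylactic experiment the antigen was given 1 day after the transfer, 3 mice made up a library, sorting was into Trizol, and 2 batches were run; OT-I cells have 5 libraries per treatment, and OT-II cells 4 for OVA, 5 for pGal and 5 for saline. In the therapeutic experiment all recipients, the saline controls too, had been immunized with OVA in complete Freund's adjuvant on the day after the transfer and waited about a month before the treatment; there a library is 1 mouse, and sorted cells were frozen in buffer. The strain is given as C57BL/6 for every prophylactic library, while in the therapeutic labels the number after the slash counts up from library to library, so the strain there is uncertain. Libraries of the 2 cell types may come from the same mice, but the labels do not tie them to each other.

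Glycolysis splits glucose into pyruvate with a small yield of energy. Resting T cells burn most of their pyruvate in mitochondria, whereas activated T cells take up more glucose and amino acids and turn much of the pyruvate into lactate, which is exported. Myc, Hif1a and the kinase encoded by Mtor drive this program: Myc is a transcription factor of growth, Hif1a is the oxygen-regulated subunit of a hypoxia factor, and Mtor senses amino acids and growth signals.

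Of the 12 contrasts between treatments, those of OVA and of pGal against saline share their saline libraries within an experiment and cell type. Gapdh and Gpi1 were higher past the threshold used below in 3 of the 12, the most among the 32 genes, and Pfkp in 2. Their promoters are shown for that reason; of the other genes called in 2 contrasts, Myc and Slc7a5, the promoter table has no entry. The sequences are the 250 bases before the annotated start, from RefSeq on GRCm38.p6, all on the minus strand; 27 of the 32 symbols have an entry in the table, and Myc, Slc2a3, Slc7a5, Slc1a5 and Slc38a1 do not. Capitals mark GCGTG in either orientation.
Gpi1, chr7:34230337-34230586: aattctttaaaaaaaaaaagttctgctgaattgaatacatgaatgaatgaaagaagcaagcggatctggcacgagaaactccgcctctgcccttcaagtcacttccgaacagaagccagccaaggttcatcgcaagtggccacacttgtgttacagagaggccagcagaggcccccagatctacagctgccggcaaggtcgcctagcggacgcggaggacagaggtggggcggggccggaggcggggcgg
Gapdh, chr6:125165774-125166023: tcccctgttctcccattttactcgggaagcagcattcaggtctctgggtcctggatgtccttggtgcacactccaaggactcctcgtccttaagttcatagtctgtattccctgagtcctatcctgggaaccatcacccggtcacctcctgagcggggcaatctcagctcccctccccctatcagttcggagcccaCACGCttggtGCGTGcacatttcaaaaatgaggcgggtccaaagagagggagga
Pfkp, chr13:6648772-6649021: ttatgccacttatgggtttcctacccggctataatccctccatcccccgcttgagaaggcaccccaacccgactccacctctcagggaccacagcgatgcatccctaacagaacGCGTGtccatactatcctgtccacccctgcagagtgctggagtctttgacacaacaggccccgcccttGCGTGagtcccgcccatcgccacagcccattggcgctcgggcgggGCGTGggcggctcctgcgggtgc
Searched on both strands over these 250 bases were CACGTG, the letters of the E box that Myc can bind, and ACGTG and GCGTG, core letters of the element that Hif1a can bind; every E box so spelled also holds the shorter ACGTG letters. The E box was in 6.02% of 32851 promoters and, counting a symbol with any such promoter, in 5 of 27 of the genes described here (18.5%). ACGTG was in 16.6% of promoters and in 14 of 27 symbols (51.9%), and GCGTG in 28.2% and 16 of 27 (59.3%). Some symbols have more than 1 promoter (41 for the 27), so the shares per symbol and per promoter are not on the same footing. Counted per promoter, CACGTG was in 5, ACGTG in 17 and GCGTG in 21 of the 41. The Gpi1 window held none of these letters, and Gapdh and Pfkp held only GCGTG. A match is a description of the letters and not evidence of binding.

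Library totals of estimated counts were 21.15 to 68.23 M in the prophylactic and 22.6 to 62.5 M in the 42 therapeutic libraries used. In 11 of 53 therapeutic libraries Cd4 and Cd8a went against the label; these were left out of the tests and never relabelled, so that OT-I cells have 8 libraries for OVA, 8 for pGal and 6 for saline, and OT-II cells 6, 8 and 6. B cell transcripts (a sum over B cell marker genes, Cd79a, Cd79b and Ms4a1 among them, of over 100 CPM, which is counts scaled to library size) marked 7 prophylactic libraries, namely OT-I OVA batch 2 replicate 2, OT-I saline batch 1 replicate 1 and batch 2 replicate 1, OT-II OVA batch 2 replicate 2, OT-II saline batch 1 replicate 1 and batch 2 replicate 1, and OT-II pGal batch 1 replicate 3. With Cd74 added, the B cell sum reached 18800 CPM in OT-II OVA batch 2 replicate 2 and 10400 CPM in OT-II pGal batch 1 replicate 3, against group medians of 294 and 216 CPM. Without Cd74, many therapeutic libraries also passed 100 CPM, among them every OT-I pGal library used (120.9 to 276.3 CPM). With Cd74, the medians of the therapeutic groups were 451 to 1110 CPM. Prophylactic OT-I OVA batch 1 replicate 1 and OT-I pGal batch 1 replicate 2 held Cd4 above 100 CPM. In bulk RNA of sorted cells, fewer cells with a transcript and less of it per cell cannot be told apart.

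Per kilobase of exon, a scale on which genes can be compared, the median over the 12 groups was highest for Gapdh (553.6 CPM per kb), Ldha (538.2), Eno1 (494.2), Pkm (401.0) and Aldoa (277.9). It was lowest for Hk2 (0.5045), Slc16a3 (0.7494) and Aldoc (0.8051). Transcripts of hexokinase, the enzyme that traps glucose, were almost all Hk1. Its share of Hk1 plus Hk2 per kilobase was 97.8% to 99.9% in every prophylactic library and 88.4% to 99.7% in the therapeutic libraries used. Aldoa made up at least 99.0% of aldolase transcripts in every library used. Copies with near-identical sequence were low, with medians of 1.13 CPM for Eno1b, 1.94 for Gapdhs, 1.90 for Pgam2 and 0.304 for Gm3839, though estimated counts can be split between such copies.

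After plain OVA, prophylactic OT-I cells had more transcript of 3 glycolytic enzyme genes, Pfkp, Gapdh and Gpi1, and less of Myc and of the amino acid carrier gene Slc7a5. Pfkp encodes a phosphofructokinase, the enzyme of the committed step of glycolysis. After OVA it stood at 349.2, 458.8 and 445.4 CPM in batch 1 and 477.0 and 473.6 CPM in batch 2, and after saline at 266.2, 246.8 and 300.6 CPM and at 304.4 and 368.5 CPM. Within each batch every OVA library was above every saline library, although the lowest OVA value lay under the highest saline value of the other batch. Its log2 fold change was 0.59 (SE 0.121, 95% interval 0.34 to 0.85, edgeR quasi-likelihood adjusted p = 0.00934), with 0.64 in batch 1 alone and 0.51 in batch 2 alone (adjusted p = 0.172).

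Gapdh, whose enzyme carries out the oxidation step of glycolysis, was at 825.4, 1040, 839.9, 1151 and 1038 CPM after OVA and at 816.6, 770.2, 709.1, 713.2 and 769.5 CPM after saline. The groups did not overlap, and the log2 fold change was 0.38 (SE 0.088, edgeR adjusted p = 0.0194). Gpi1, the isomerase that feeds glucose phosphate into the pathway, rose from 288 ± 32.9 CPM (SD, n = 5) to 354 ± 58.4 CPM (SD, n = 5; log2 fold change 0.31, SE 0.085, edgeR adjusted p = 0.0468), and its groups overlapped.

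Myc was at 194.7, 198.1, 249.5, 201.7 and 163.3 CPM after OVA and at 275.7, 305.3, 298.8, 251.3 and 277.9 CPM after saline. Every OVA library was below every saline library, and the log2 fold change was -0.47 (SE 0.116, edgeR adjusted p = 0.0282). Slc7a5, the light chain of a carrier of large neutral amino acids, was at 65.87, 59.26, 56.42, 84.39 and 72.07 CPM after OVA and at 83.12, 77.00, 82.14, 96.39 and 104.7 CPM after saline. In each batch the OVA libraries were below the saline libraries, with a log2 fold change of -0.37 (SE 0.100, edgeR adjusted p = 0.0396). Its heavy chain gene Slc3a2 had a log2 fold change of -0.28 (edgeR adjusted p = 0.118).

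Of the 32 genes 3 were called higher, beside 4.12% of all 13802 genes tested, and 2 lower, beside 1.28%; called means an adjusted p under 0.05 over all genes tested. The median log2 fold change of the 32 was -0.02, beside 0.00 over all genes. The glucose carrier gene Slc2a3 (0.52, edgeR adjusted p = 0.0652), Pgam1 (0.23, adjusted p = 0.0947), Ldha (0.19, adjusted p = 0.239), Hk2 (0.31, adjusted p = 0.508), Tfrc (-0.28, adjusted p = 0.511) and Slc2a1 (-0.08, adjusted p = 0.684) did not pass. All 5 markers of dividing cells rose in the same contrast (Mki67 by 2.44 on the log2 scale), their summed level being 105 to 225 CPM after OVA and 28.3 to 63.1 CPM after saline, and the part of cell division in the result was not tested. With the 3 OT-I libraries of high B cell signal left out none of the 32 was called (2.12% of all genes were), and the log2 fold changes of the 5 were 0.57 for Pfkp, 0.37 for Gapdh, 0.30 for Gpi1, -0.51 for Myc and -0.39 for Slc7a5. Leaving out the 2 libraries with Cd4 left Pfkp and Gapdh called, and batch 2 alone gave no call. Leaving out single libraries gave 1 call (Pfkp) without OVA batch 1 replicate 2, saline batch 2 replicate 1 or saline batch 2 replicate 2, 2 without OVA batch 2 replicate 2 or saline batch 1 replicate 3, and 3 without OVA batch 1 replicate 1, pGal batch 1 replicate 2 or saline batch 1 replicate 1.

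After pGal, Gapdh and Gpi1 were again higher and Myc lower in prophylactic OT-I cells, against the same saline libraries. Gapdh was at 945.4, 980.8, 897.5, 1131 and 1163 CPM, above every saline library given above, and rose by a log2 fold change of 0.44 (SE 0.088, edgeR adjusted p = 0.0166). Gpi1 was at 287.4, 314.6, 289.2, 455.5 and 503.2 CPM after pGal and at 271.0, 276.9, 248.4, 318.7 and 325.6 CPM after saline. The highest values were the batch 2 libraries in both groups, and the log2 fold change was 0.34 (SE 0.085, edgeR adjusted p = 0.0402). Myc fell to 206 ± 55.9 CPM (SD, n = 5; log2 fold change -0.47, SE 0.117, edgeR adjusted p = 0.0393). Pfkp (0.46, adjusted p = 0.0503) and Slc7a5 (-0.35, adjusted p = 0.0692) stood just outside the threshold, and Ldha (0.22, adjusted p = 0.178), Hk2 (0.23, adjusted p = 0.655), Tfrc (-0.28, adjusted p = 0.515) and Slc2a1 (0.05, adjusted p = 0.786) farther from it.

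The batches gave unequal values. Pfkp was at 298.4, 309.2 and 334.5 CPM in the pGal libraries of batch 1 and at 566.1 and 579.4 CPM in those of batch 2, whereas saline libraries spanned 246.8 to 368.5 CPM over both. Myc was at 266.6, 205.2 and 256.7 CPM in batch 1 and 159.2 and 142.0 CPM in batch 2. In batch 1 alone no gene of the 32 was called, with log2 fold changes of 0.31 for Gapdh, 0.18 for Gpi1 and -0.26 for Myc. In batch 2 alone 5 were called, with 0.62, 0.56 and -0.82 for the same genes. The shares of all genes called in these single-batch fits are not given here.

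With both batches 2 of the 32 were called higher, beside 2.64% of all genes, and 1 lower, beside 0.710%; the median was 0.02 against 0.00 over all genes. The cycling markers again rose, 5 of 5, their sum being 63.9 to 266 CPM. No call was left with the 3 libraries of high B cell signal removed (0.564% of all genes were called), nor without pGal batch 2 replicate 1, pGal batch 2 replicate 2 or saline batch 2 replicate 2. Gapdh alone was left without the 2 libraries with Cd4, and without pGal batch 1 replicate 2, saline batch 1 replicate 3 or saline batch 2 replicate 1. Between pGal and OVA directly, none of the 32 was called in OT-I cells (0% of all genes were called, 0 of the 32 had an unadjusted p under 0.05, and DESeq2 called 0); the interval of the difference ran from -0.13 to 0.24 for Gapdh, -0.39 to 0.12 for Pfkp and -0.25 to 0.25 for Myc. The smallest p were those of Tpi1 (0.15, SE 0.078) and Slc2a1 (0.13, SE 0.085), while Slc7a5 (0.03), Ldha (0.03), Tfrc (-0.01) and Hk2 (-0.08) were nearer to 0, all with an edgeR adjusted p of 1.

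**Figure D1:**
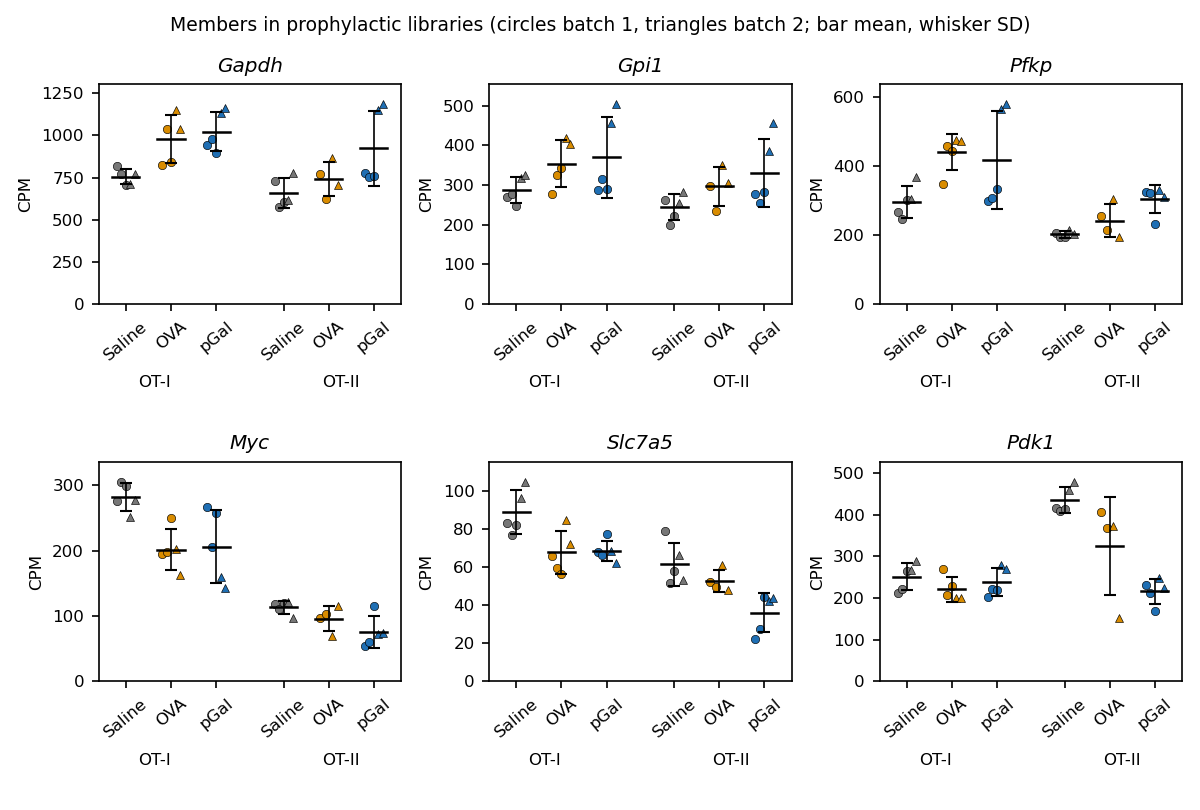
Level (CPM, linear axis from 0) of 6 genes in each prophylactic library by cell type and treatment; points are libraries and bars are means with SD. Gapdh lies at 709.1 to 816.6 CPM in the OT-I saline libraries and at 825.4 CPM or more after either antigen, and Pdk1 lies at 408.5 to 478.7 CPM in OT-II saline libraries and 168.2 to 247.1 CPM after pGal.

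Of the 12 treatment contrasts, pGal against saline in prophylactic OT-II cells had the most calls, 9 of the 32 genes. Enzyme genes of both arms of glycolysis and Hif1a were higher, and Pdk1 and the amino acid carrier genes Slc7a5 and Slc38a2 were lower. Pdk1 encodes a kinase that limits the burning of pyruvate in mitochondria by inhibiting pyruvate dehydrogenase. It was at 230.2, 210.7, 168.2, 247.1 and 222.9 CPM after pGal and at 414.5, 408.5, 413.8, 458.9 and 478.7 CPM after saline. Every pGal library was below every saline library, and the log2 fold change was -0.999 (SE 0.205, 95% interval -1.44 to -0.56, edgeR adjusted p = 0.00676), with -1.01 in batch 1 alone and -1.01 in batch 2 alone (adjusted p = 0.364 in the latter).

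Among the enzymes, Pfkp stood at 325.0, 321.5, 231.9, 332.2 and 309.9 CPM after pGal and 205.4, 193.4, 193.6, 216.1 and 204.1 CPM after saline. All pGal libraries were above all saline libraries, the lowest of them being the library rich in B cell transcripts, and Pfkp rose by 0.60 (SE 0.120, edgeR adjusted p = 0.00602). Gapdh was at 777.3, 750.9, 760.6, 1152 and 1184 CPM after pGal and 727.3, 573.6, 606.5, 614.7 and 779.3 CPM after saline. The high values were those of batch 2, and the log2 fold change was 0.47 (SE 0.114, edgeR adjusted p = 0.0160), 0.27 in batch 1 alone and 0.73 in batch 2 alone. Gpi1 rose from 244 ± 32.8 to 331 ± 85.5 CPM (0.43, SE 0.105, edgeR adjusted p = 0.0178), and Pgam1, which moves the phosphate group of a late intermediate, from 85.7 ± 14.1 to 117 ± 15.7 CPM (0.46, SE 0.137, edgeR adjusted p = 0.0451). Hif1a was at 251.4, 251.8, 195.7, 271.2 and 178.4 CPM after pGal and at 131.5, 153.5, 115.4, 179.2 and 159.3 CPM after saline. Only the highest saline and the lowest pGal library overlapped, both of batch 2 (0.66, SE 0.145, edgeR adjusted p = 0.00987; 0.40 in batch 2 alone).

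Carriers of amino acids went both ways. Slc7a5 was at 22.32, 27.36, 44.11, 42.11 and 43.77 CPM after pGal and at 78.82, 51.42, 57.71, 66.24 and 53.26 CPM after saline, without overlap (log2 fold change -0.78, SE 0.181, edgeR adjusted p = 0.0135). Slc38a2, a carrier of small neutral amino acids, was at 146.6, 145.6, 192.3, 171.2 and 86.69 CPM against 229.7, 248.8, 259.1, 292.0 and 245.4 CPM, also without overlap (-0.77, SE 0.181, edgeR adjusted p = 0.0144). Its relative Slc38a1 was higher, at 200.7 to 215.9 CPM after pGal and 117.4 to 179.8 CPM after saline (0.50, SE 0.125, edgeR adjusted p = 0.0201). Slc3a2 (-0.18, adjusted p = 0.499) and the glutamine carrier Slc1a5 (0.22, adjusted p = 0.0889) did not pass.

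In this contrast 6 of the 32 were called higher, beside 6.37% of all 14128 genes tested, and 3 lower, beside 5.34%. The median of the 32 was 0.14 and that of all genes 0.04. Of the 4 genes that bring in or trap glucose none passed: Slc2a1 was -0.39 (adjusted p = 0.148) and Hk2, at 0.4016 to 1.848 CPM after saline and 1.038 to 5.982 CPM after pGal, was 1.59 (SE 0.636, adjusted p = 0.127). Myc went from 113 ± 9.79 to 75.4 ± 23.8 CPM (-0.58, adjusted p = 0.0666), Ldha was 0.14 (adjusted p = 0.578), Tfrc -0.03 (adjusted p = 0.961), Aldoa -0.41 (adjusted p = 0.0614), Eno1 -0.39 (adjusted p = 0.0646) and Tpi1 0.70 (adjusted p = 0.0543). Of the cycling markers 3 of 5 rose, their sum being 49.1 to 179 CPM after pGal and 8.20 to 31.7 CPM after saline. Runx3, a factor of the CD8 lineage, rose by 0.41, while Cd8a and Cd8b1 were not called. The sum of Cd8a, Cd8b1 and Runx3 was 108 to 353 CPM after pGal (median 110) and 92.6 to 140 CPM after saline (median 116).

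Leaving out the 4 OT-II libraries of high B cell signal gave 11 calls, with Pgam1 lost and Myc (-0.71), Tpi1 and Aldoc gained, and Hk2 at 0.77. Batch 2 alone, with 2 libraries a group, gave no call among the 32 and 0% of all genes, while batch 1 alone gave 10. Single libraries moved the count between 5 (without saline batch 1 replicate 3) and 14 (without OVA batch 2 replicate 2). Pfkp, Pdk1, Slc7a5, Slc38a2 and Hif1a were called without any 1 library. Except for batch 2 alone, the shares of all genes called in these settings are not given here, so the counts have no background beside them.

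For plain OVA against saline in prophylactic OT-II cells none of the 32 was called, beside 0.163% of all genes, with 2 of the 32 at an unadjusted p under 0.05 and 0 called by DESeq2. Pgam1 (0.36, SE 0.146, adjusted p = 0.584) and Gpi1 (0.24, SE 0.111, adjusted p = 0.668) had the smallest p. Pdk1 was at 406.2, 367.7, 372.6 and 151.3 CPM after OVA, all below the saline libraries, the lowest being the library with the highest B cell sum (-0.42, adjusted p = 0.723). Pfkp was 0.25 (95% interval -0.02 to 0.52) and Gapdh 0.14 (-0.12 to 0.40). Hk2 (1.33, SE 0.704), Tfrc (0.42), Slc7a5 (-0.24), Myc (-0.22), Slc2a1 (-0.09) and Ldha (-0.004) had adjusted p of 0.730 to 0.996.

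Directly compared, pGal and OVA in OT-II cells gave no call among the 32, beside 1.87% of all genes called. At an unadjusted p under 0.05 no share of all genes was computed, in this or any other contrast, and 8 of the 32 had such a p. The smallest were for Slc38a2 (-0.63, SE 0.192, edgeR adjusted p = 0.124) and Slc7a5 (-0.54, SE 0.189, edgeR adjusted p = 0.182), whose 5 pGal and 4 OVA libraries did not overlap. DESeq2 called Slc38a2, and with the libraries of high B cell signal left out Pdk1 and Slc7a5 were called (4.30% of all genes). Pdk1 alone was called without OVA batch 2 replicate 2, and Slc38a2 and Tfrc without pGal batch 1 replicate 3. Myc (-0.36), Slc2a1 (-0.29), Tfrc (-0.44), Hk2 (0.26) and Ldha (0.15) did not pass either (the largest adjusted p was 0.947, for Hk2).

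Whether the response differed between the cell types was tested by interaction terms, and none of the 32 passed. For pGal against saline Pdk1 came closest: its response was 0.93 higher in OT-I than in OT-II cells (SE 0.241, edgeR adjusted p = 0.0530), with -0.07 in OT-I and -0.999 in OT-II cells. It was called with DESeq2, with DESeq2 size factors in edgeR, with the libraries of high B cell signal left out, and without OT-II OVA batch 2 replicate 2. Slc38a2 followed (0.69, SE 0.206, adjusted p = 0.113) and was called without OT-II pGal batch 1 replicate 3. In this term 1.17% of all 14845 genes were called. An unadjusted p under 0.05 was found for 8 of the 32, with no share of all genes at that cut. For pGal against OVA 0.505% of all genes were called, 5 of the 32 had an unadjusted p under 0.05, and DESeq2 called Slc38a2 (0.76 in edgeR, adjusted p = 0.114); edgeR called Slc38a2 without OT-II pGal batch 1 replicate 3 and Pdk1 without OT-II OVA batch 2 replicate 2. For OVA against saline 0.0337% were called, 1 of the 32 (Tpi1, -0.53, adjusted p = 0.649) had an unadjusted p under 0.05, and DESeq2 called 0.

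**Figure D2:**
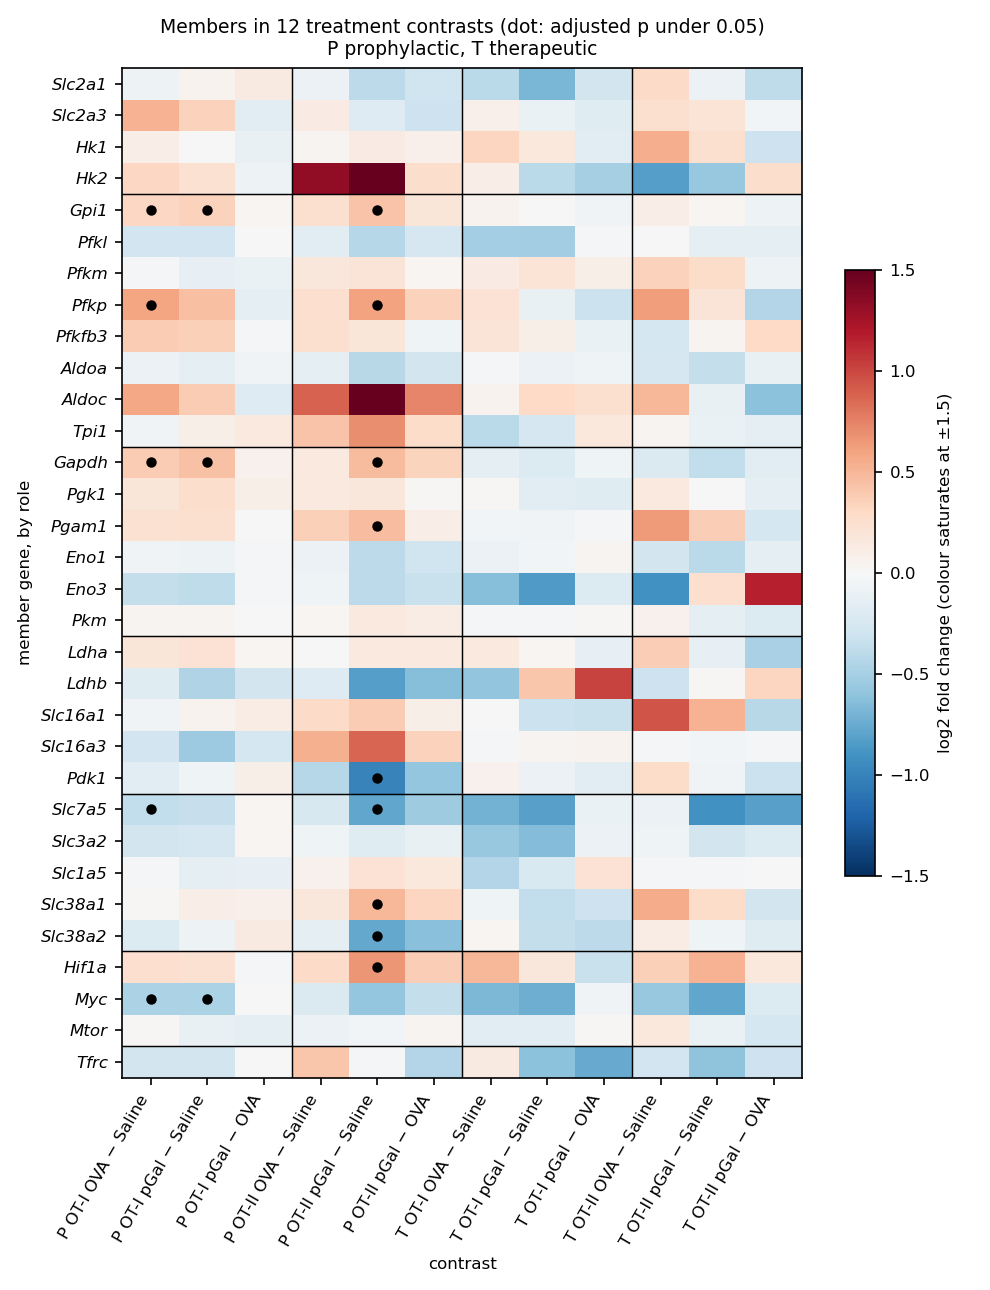
Log2 fold change of each of the 32 genes (rows, by role) in the 12 contrasts between treatments (columns), red for higher and blue for lower in the group named first; dots mark an edgeR adjusted p under 0.05. Dots occur only in the prophylactic columns, 5 and 3 in OT-I cells for OVA and pGal against saline and 9 in OT-II cells for pGal against saline.

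Other genes of the same pathways were read from the same fits. Of 16 further glycolysis genes 12 were tested, and none was called in prophylactic OT-I or OT-II cells in any contrast with saline. In OT-II cells given pGal, Txnip, which restrains glucose uptake, fell by 0.99 on the log2 scale (SE 0.128, edgeR adjusted p = 0.000325), and the hexose carrier gene Slc2a8 rose by 0.90 (adjusted p = 0.0309), the only 2 of 7 tested hexose carriers and brakes to pass. Pdk3, a relative of Pdk1, rose by 0.66 (edgeR adjusted p = 0.00422), 1 of 9 tested genes of pyruvate entry into mitochondria and its burning there. Of 12 genes of the hypoxia response none rose, and Epas1 (-2.04) and P4ha1 (-0.67) fell. Of 18 genes of the mTORC1 pathway Castor1 and Sesn3, which both hold the pathway back when amino acids are short, rose by 0.96 and 1.04. Castor1 also rose in prophylactic OT-I cells, by 1.07 after OVA (edgeR adjusted p = 0.0299) and 1.23 after pGal (edgeR adjusted p = 0.0251), the 1 call of the 18 in each. The Txnip response to pGal was itself different between the cell types, by 0.97 (SE 0.158, edgeR adjusted p = 0.00181).

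Among relatives of Myc, Mxd4, whose protein competes with Myc for its partner Max, rose in all 3 contrasts: by 0.62 and 0.55 in OT-I cells given OVA and pGal and by 1.28 in OT-II cells given pGal. Mxd3 passed the threshold in OT-I cells, rising by 1.68 after OVA and 1.34 after pGal, and Mxi1 fell by 0.69 in OT-II cells given pGal. Of the pentose phosphate genes Pgd rose in OT-I cells given pGal by 0.29 (adjusted p = 0.0407), 1 of 7, and of 11 other amino acid carrier genes Slc43a1 rose in OT-I cells given OVA by 1.23 (adjusted p = 0.0295).

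In the therapeutic experiment none of the 6 treatment contrasts called any of the 32 genes. Shares of all genes are again given for calls only, and counts at an unadjusted p stand without one. In OT-I cells 0.686% of all 14581 genes were called for OVA against saline, 0% for pGal against saline and 0% for pGal against OVA; 4, 5 and 2 of the 32 had an unadjusted p under 0.05, and DESeq2 called 0 in each. In OT-II cells 1.54% of all 14244 genes were called for OVA against saline, 0.00702% for pGal against saline and 0% for pGal against OVA; 4, 3 and 3 of the 32 had an unadjusted p under 0.05, and DESeq2 called 2 (Pfkp and Slc38a1), 1 (Myc) and 0.

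Myc had a negative log2 fold change against saline in all 4 such contrasts, which share their saline libraries within a cell type. In OT-I cells it ranged from 170.7 to 239.0 CPM after saline (median 180.8, n = 6), from 55.3 to 196.9 after OVA (median 110.6, n = 8) and from 91.5 to 163.2 after pGal (median 121.6, n = 8). The pGal libraries lay below all saline libraries, and the OVA libraries overlapped them (-0.73, SE 0.208, adjusted p = 0.488 for pGal; -0.67, SE 0.208, adjusted p = 0.139 for OVA). In OT-II cells it ranged from 72.6 to 145.6 CPM after saline (n = 6), 57.8 to 90.8 after OVA (n = 6) and 24.3 to 102.1 after pGal (n = 8), all overlapping (-0.57, adjusted p = 0.221 for OVA; -0.77, SE 0.210, adjusted p = 0.183 for pGal). With all libraries as labelled, the values were -0.55 and -0.70 in OT-I and -0.56 and -0.69 in OT-II cells for OVA and pGal. The sum of the sorting stress genes Fos, Jun, Hspa1a, Hspa1b and Dusp1 also differed in its median. After saline, OVA and pGal it was 11200, 9210 and 6860 CPM in OT-I cells and 20800, 10400 and 11700 CPM in OT-II cells. The antigen groups overlapped saline, none of these stress genes was called in the 4 contrasts, and their part was not tested.

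Of the uptake genes, Slc2a1, a main glucose carrier of activated T cells, had a median of 91.4 CPM after saline, 81.0 after OVA and 67.6 after pGal in OT-I cells, with ranges of 86.9 to 126.1, 49.9 to 90.3 and 39.0 to 88.4 CPM. The ranges of the groups overlapped, and pGal against saline was -0.68 (SE 0.169, edgeR adjusted p = 0.388). Slc3a2 was -0.65 for pGal (adjusted p = 0.488) and -0.57 for OVA (adjusted p = 0.149) in the same cells. In OT-II cells Pfkp had a median of 257.3 CPM after saline (243.1 to 322.6), 463.8 after OVA (275.7 to 495.1) and 300.4 after pGal (198.7 to 459.3). Its log2 fold change for OVA was 0.63 (SE 0.192, edgeR adjusted p = 0.0992), and Slc38a1 followed (0.55, SE 0.177, edgeR adjusted p = 0.119). The genes with the smallest p for pGal against OVA were Pfkp (-0.32) and Tfrc (-0.76) in OT-I cells, and Eno3 (1.17) and Pfkp (-0.43) in OT-II cells, with adjusted p of 1 and of 0.672. Tfrc for pGal against saline was -0.62 (adjusted p = 0.845) in OT-I and -0.60 (adjusted p = 0.531) in OT-II cells.

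Hk2, Ldha and Slc7a5 passed in none of these contrasts. In OT-I cells their log2 fold changes for OVA and pGal against saline were 0.10 and -0.40 for Hk2, 0.15 and 0.03 for Ldha, and -0.71 and -0.82 for Slc7a5, which ranged from 26.5 to 105.2 CPM in the saline, 5.96 to 84.7 CPM in the OVA and 10.8 to 77.0 CPM in the pGal libraries. In OT-II cells they were -0.83 and -0.57 for Hk2, 0.37 and -0.12 for Ldha, and -0.09 and -0.90 for Slc7a5, which ranged from 2.70 to 42.0 CPM after saline and 0.593 to 27.7 CPM after pGal. For pGal against OVA Myc was -0.05, Slc2a1 -0.27, Hk2 -0.50, Ldha -0.12 and Slc7a5 -0.10 in OT-I cells, and -0.20, -0.38, 0.26, -0.49 and -0.81 in OT-II cells, where Tfrc was -0.31. The remaining values for OVA against saline were 0.14 for Tfrc in OT-I and -0.29 in OT-II cells, and 0.29 for Slc2a1 in OT-II cells, in which pGal against saline gave -0.09. The median width of the 95% interval of the 32 genes was 0.89 here and 0.45 in the prophylactic experiment for OVA against saline in OT-I cells, and 1.06 and 0.74 in OT-II cells. The interaction terms of the therapeutic experiment called none of the 32 (0.121% of all 15747 genes for OVA against saline, 0% for pGal against saline and 0% for pGal against OVA), with 2, 1 and 1 at an unadjusted p under 0.05 and 0 by DESeq2.

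**Figure D3:**
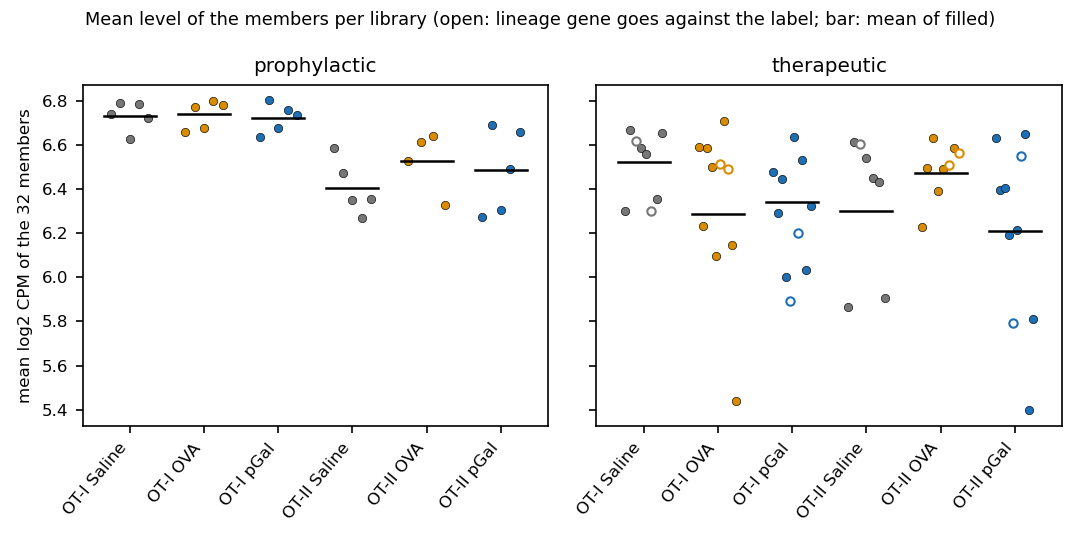
Mean log2 CPM of the 32 genes in each library by experiment, cell type and treatment; open points are therapeutic libraries whose Cd4 and Cd8a go against their label. Prophylactic OT-I libraries lie between 6.63 and 6.80 whatever the treatment, and therapeutic OT-II pGal libraries reach down to 5.397.

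As a mean over all 32 genes the prophylactic groups lay close together. In prophylactic OT-I cells it was 6.74 ± 0.065 after OVA, 6.72 ± 0.067 after pGal and 6.73 ± 0.067 after saline (SD, n = 5 each). In prophylactic OT-II cells it was 6.53 ± 0.14 (SD, n = 4), 6.48 ± 0.193 and 6.41 ± 0.124 (SD, n = 5 each). The treatment groups overlapped in both. Therapeutic libraries spread more, from 5.44 to 6.71 after OVA in OT-I cells and from 5.397 to 6.65 after pGal in OT-II cells. The lowest library of each group, OT-I OVA replicate 10 and OT-II pGal replicate 9, also had its lowest sum of Cd3e, Cd3d and Trac. These sums were 1296 CPM (group median 1620) and 616.7 CPM (group median 1450). The part of T cell content or library quality in the spread was not tested.

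Without antigen the 2 cell types differed in many of these genes. In prophylactic saline libraries OT-I cells had more transcript than OT-II cells of 14 of the 32 genes, beside 10.0% of all 14845 genes, and less of 3, beside 8.12%. Slc16a1, which carries lactate and pyruvate across the membrane, was at 114.0, 115.2, 132.9, 98.42 and 94.19 CPM in OT-I and at 38.13, 31.10, 42.55, 34.36 and 40.96 CPM in OT-II cells. The groups were well apart (log2 fold change 1.55, SE 0.133, edgeR adjusted p = 4.96e-09).

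Ldhb, the lactate dehydrogenase chain that favours turning lactate back to pyruvate, was at 19.45, 13.54, 16.02, 11.87 and 10.15 CPM in OT-I and at 86.83, 77.30, 90.07, 67.59 and 61.41 CPM in OT-II cells. It was lower in every OT-I library (-2.46, SE 0.388, edgeR adjusted p = 4.9e-05). Pdk1 was lower too, at 251 ± 32.5 against 435 ± 31.8 CPM (SD, n = 5 each; -0.82, SE 0.171, edgeR adjusted p = 0.00112). Ldha, the chain that favours lactate, was at 1269 ± 139 and 1077 ± 108 CPM and did not pass (0.22, adjusted p = 0.217). Hk2, low in both, was at 2.529 to 3.174 CPM in OT-I and 0.4016 to 1.848 CPM in OT-II cells (1.68, SE 0.461, edgeR adjusted p = 0.0109).

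Myc was at 251.3 to 305.3 CPM in OT-I and 97.46 to 121.1 CPM in OT-II saline libraries, without overlap (1.29, SE 0.164, edgeR adjusted p = 2.24e-06). The enzymes Pgam1 (1.03), Tpi1 (1.17), Pfkp (0.53), Pgk1 (0.40) and Eno3 (0.69) were higher in OT-I cells, as were the carriers Slc2a3 (0.84), Slc1a5 (0.47), Slc38a1 (0.67), Slc3a2 (0.38) and Slc7a5 (0.50) and the iron receptor gene Tfrc (0.92). Pfkfb3, which makes the activator of phosphofructokinase, was lower (-0.57, edgeR adjusted p = 0.00702). The most abundant enzyme genes did not pass: Aldoa 0.06 (adjusted p = 0.781), Pkm -0.08 (adjusted p = 0.707), Gapdh 0.19 (adjusted p = 0.251) and Eno1 0.21 (adjusted p = 0.210). Mki67 and Top2a were also higher in OT-I cells (1.35 and 1.22). Lower were the sorting stress genes Jun and Dusp1 (-1.091 and -1.003) and Pecam1, counted with the stroma markers (-0.60). Their part in the result was not tested.

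In saline libraries of the therapeutic experiment 6 of the 32 were higher in OT-I cells, beside 4.42% of all 15747 genes, and 2 lower, beside 4.59%. Ldhb was at 1.24 to 5.87 CPM (median 1.95, n = 6) in OT-I and 11.7 to 47.1 CPM (median 36.6, n = 6) in OT-II cells, without overlap (-3.56, SE 0.619, edgeR adjusted p = 5.26e-05). Slc2a3, a glucose carrier of high affinity, was at 103 to 171 CPM (median 140) and 7.49 to 39.5 CPM (median 23.6), again without overlap (2.58, SE 0.421, edgeR adjusted p = 1.78e-05). Slc16a1 was at 34.9 to 84.7 CPM (median 67.4) and 1.89 to 32.4 CPM (median 20.5; 1.83, SE 0.547, edgeR adjusted p = 0.0245). These genes, with Pgam1 (1.03, SE 0.227), Pfkp (0.68, SE 0.189) and Myc (0.85, SE 0.240), are 6 of the 8, and each was also called, in the same direction, in the prophylactic experiment. The other 2 were Slc2a1 (1.09, SE 0.263, edgeR adjusted p = 0.00384; 0.14 in the prophylactic experiment) and Hif1a, at 64.2 to 147 CPM (median 111) in OT-I and 95.7 to 386 CPM (median 218) in OT-II cells, with overlap (-1.11, SE 0.349, edgeR adjusted p = 0.0340; 0.19 in the prophylactic experiment). Here Mki67, Top2a and Birc5 of the cycling markers were higher in OT-I cells. So were Itgam and Cd68 of the myeloid markers, Pf4 of the erythroid and platelet markers and Klrb1c of the NK markers. The other genes of these lists were not called. Median sums in OT-I and OT-II cells were 90.2 and 70.9 CPM for the myeloid and 36.0 and 6.68 CPM for the NK list. For the erythroid and platelet list they went the other way, at 47.1 and 128 CPM. Pecam1, counted with the stroma markers, was lower (-1.42). The sum of that list was 44.8 to 70.8 CPM in OT-I and 102 to 190 CPM in OT-II cells. The part of these markers was not tested, nor was whether Pecam1 came from stromal cells or from the T cells. With all therapeutic libraries as labelled none of the 32 was called, and 0% of all genes, with Ldhb at -1.30 and Slc2a3 at 1.63.

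**Figure D4:**
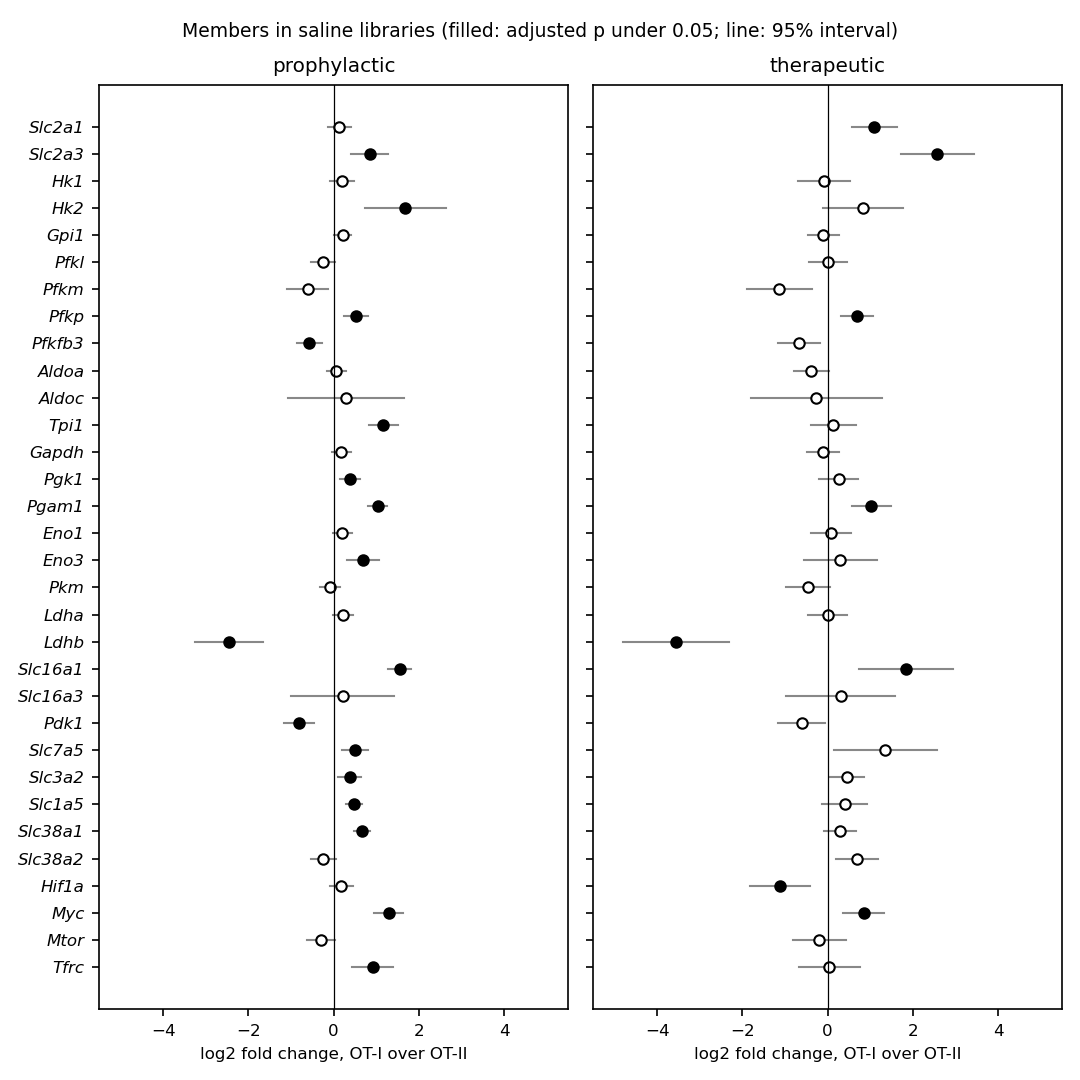
Log2 fold change of OT-I over OT-II cells in saline libraries for the 32 genes, prophylactic on the left and therapeutic on the right; points are estimates, lines are 95% intervals, and filled points have an edgeR adjusted p under 0.05. Ldhb lies farthest to the left in both panels, at -2.46 and -3.56, and Slc16a1 and Slc2a3 lie to the right in both.

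Isoenzyme shares, computed per kilobase within each library, do not depend on the scaling of libraries. Ldhb made up 1.18% to 1.97% of lactate dehydrogenase transcripts in prophylactic OT-I saline libraries and 7.57% to 10.6% in OT-II saline libraries, and the rest was Ldha. In OT-II cells given pGal its share was 3.53% to 6.75%, below every saline library, while its log2 fold change did not pass (-0.83, SE 0.394, edgeR adjusted p = 0.210). After OVA it was 3.51% to 11.0%, the lowest being the library with the highest B cell sum in that group. In the therapeutic experiment the share was at most 1.31% in any OT-I library used and 2.58% to 8.62% in any OT-II library used.

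Slc2a3 made up 44.0% to 56.4% of Slc2a1 plus Slc2a3 transcripts in prophylactic OT-I saline libraries and 35.6% to 41.3% in OT-II saline libraries, and in the therapeutic experiment 49.3% to 56.9% and 16.0% to 47.7%. Pfkp took 54.8% to 63.4% of phosphofructokinase transcripts in prophylactic OT-I saline libraries, 63.6% to 75.9% after OVA and 59.4% to 80.4% after pGal. Only the OVA range did not overlap saline, and its lowest share (63.6%) nearly touched the highest saline share (63.4%). In prophylactic OT-II cells it took 39.7% to 53.0% after saline, 47.3% to 59.0% after OVA and 54.5% to 69.3% after pGal. Here the pGal range alone did not overlap saline, with 54.5% as its lowest and 53.0% as the highest saline share. In the therapeutic experiment both antigen groups overlapped saline in each cell type. The shares were 64.1% to 72.9% after saline, 69.7% to 82.8% after OVA and 68.7% to 84.8% after pGal in OT-I cells. They were 52.8% to 68.4%, 55.3% to 74.7% and 54.0% to 66.5% in OT-II cells. Pfkl held most of the remainder in the prophylactic experiment (34.0% to 42.8% in OT-I and 40.9% to 57.3% in OT-II saline libraries), and Pfkm at most 7.41% in any library used.

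**Figure D5:**
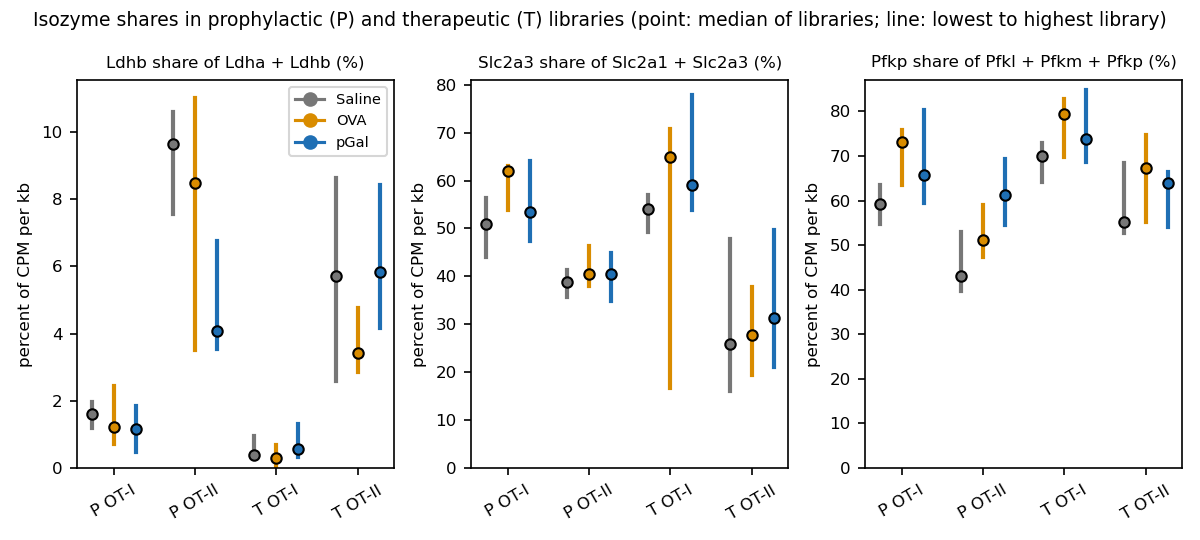
Isoenzyme and carrier shares (percent, per kilobase of exon) by group, in the libraries used. They are of Ldhb among Ldha and Ldhb, Slc2a3 among Slc2a1 and Slc2a3, and Pfkp among Pfkl, Pfkm and Pfkp. Points are medians of the libraries of a group, and lines run from the lowest to the highest library. Ldhb is at most 2.43% in every OT-I library used and at least 2.58% in every OT-II library used.

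Saline libraries of the therapeutic and the prophylactic experiment differ in priming with OVA in adjuvant, in time since transfer, in pooling and in how sorted cells were kept, and these cannot be told apart. In OT-I cells 5 of the 32 were higher in the therapeutic experiment, beside 14.2% of all 13768 genes, and 10 lower, beside 14.0%. In OT-II cells 4 were higher, beside 6.70% of all 13441 genes, and 4 lower, beside 4.17%. Pdk1 was lower in both, at 43.0 to 70.7 CPM in therapeutic and 212.5 to 291.2 CPM in prophylactic OT-I libraries (-2.10, SE 0.145, edgeR adjusted p = 2.56e-07) and at 40.9 to 160.7 against 424.3 to 490.4 CPM in OT-II libraries (-2.30, SE 0.269, edgeR adjusted p = 0.000124). With the prophylactic libraries of high B cell signal left out, or with either prophylactic batch alone, Pdk1 was called in both cell types each time, and Slc1a5 in both each time except in OT-II cells with batch 2 alone (0.963, 0.874 and 1.141 in OT-II cells).

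Ldhb was lower in both cell types, at 1.27 to 5.69 against 10.2 to 19.5 CPM in OT-I (-2.34) and 12.4 to 46.5 against 62.9 to 92.7 CPM in OT-II cells (-1.22). Hk2 was higher in both, at 3.17 to 15.3 against 2.51 to 3.13 CPM (1.68) and 1.26 to 8.23 against 0.413 to 1.92 CPM (2.54, with overlap), and so was Slc1a5 (0.91 and 0.99). Slc2a3 went up in OT-I cells (0.50, edgeR adjusted p = 0.0269) and down in OT-II cells, at 7.91 to 40.3 against 44.4 to 62.6 CPM (-1.20, edgeR adjusted p = 0.0492). In OT-I cells Pfkp (0.55) and Slc3a2 (0.54) were also higher, and Hif1a (-0.64), Hk1 (-0.69), Ldha (-0.67), Slc16a1 (-0.78), Myc (-0.56), Tfrc (-0.97, at 9.03 to 38.1 against 36.5 to 83.0 CPM), Aldoa (-0.48) and Pkm (-0.50) lower. In OT-II cells Gapdh (0.57) and Tpi1 (0.95) were higher and Slc38a2 (-0.90) lower. All 5 sorting stress genes were higher in the therapeutic experiment in both cell types (Hspa1a by 2.32 and 2.63), their sum being 9320 to 17800 against 1940 to 4060 CPM in OT-I and 13900 to 38600 against 3840 to 7680 CPM in OT-II libraries; of the 5 cycling markers 5 were higher in OT-I and 2 in OT-II cells. Of genes listed as markers of other cells, Itgam (myeloid, 1 of 5) and Klrb1c (NK, 1 of 3) were higher in OT-I cells (2.04 and 2.13). Pecam1 (listed with stroma, 1 of 2 tested) was lower in OT-I cells (-1.39), and Itgam was lower in OT-II cells (-2.06). Their part in these differences was not tested. The count in OT-I cells was 6 with libraries as labelled and 3 with prophylactic batch 2 alone, and that in OT-II cells was 2 without the prophylactic libraries of high B cell signal, 3 with batch 1 alone, 1 with batch 2 alone, and 5 without prophylactic saline batch 1 replicate 1, batch 1 replicate 3, batch 2 replicate 1 or batch 2 replicate 2. With libraries as labelled Ldhb in OT-I cells was -0.28.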

How the data were processed

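RNA-seq of 82 libraries was analysed from 3 deposited tables. Their values are estimated counts per gene, whole numbers as deposited; the submitters' processing notes name bcl2fastq, kallisto 0.46.1 and GRCm38 as what the authors used, and the step from transcripts to genes is not stated there. Of 2 rows named Aldoa the more abundant was used; near-identical copies can share reads in such counts. The library totals are given in the report.

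Genes were filtered with filterByExpr, scaled by TMM and fitted with edgeR 4.0.16 (robust quasi-likelihood, R 4.3.3, with a batch term for prophylactic libraries); p-values were adjusted over all genes tested by the Benjamini-Hochberg method and called under 0.05. Each experiment and cell type had 1 fit over its 3 treatments, and 1 fit per experiment over all groups gave the cell type and interaction terms. The experiment contrast used the saline libraries of both experiments, with 1 fit and 1 scaling per cell type. CPM values are TMM-scaled, and the mean log2 CPM uses a prior count of 2. Therapeutic libraries in which Cd4 and Cd8a went against the label (11) were left out. The fit was tested on simulated data. Alternatives were DESeq2 1.42.0, its size factors in edgeR, no filter, a replicate block, single batches, single libraries left out, libraries with B cell signal or Cd4 left out, and all libraries as labelled. Leaving prophylactic libraries of high B cell signal out of the cell type and experiment contrasts, and leaving out therapeutic libraries with over 17000 genes detected, were chosen after seeing the data; figures used Python 3.11.15 with pandas 2.3.3, numpy 2.4.6 and matplotlib 3.10.9.

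Every called gene of the 32 is named, the 4 with the largest change with their library values, Myc, Slc2a1, Hk2, Ldha, Slc7a5 and Tfrc in every treatment contrast, and otherwise the 2 with the smallest p. The members and lists were chosen with earlier results of these data known. Intervals cover the spread between libraries, which are pools of 3 mice or single mice. The B cell sum includes a marker that is not reported here.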

Additional observations from a re-analysis of the deposited data

Results flagged for a closer look

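Of 43 groups of 4 to 10 libraries tested for a single distant library in the genes given with library values, 2 held one, and chance alone flags about 1 group in 20. In prophylactic OT-I cells given OVA, Pfkp was at 349.2 CPM in batch 1 replicate 1, while the other 4 libraries lay between 445.4 and 477.0 CPM; this is also the OVA library with Cd4 above 100 CPM. In prophylactic OT-II cells given pGal, Pfkp was at 231.9 CPM in batch 1 replicate 3, while the other 4 lay between 309.9 and 332.2 CPM; this is the library of that group with high B cell signal. Both values lay on the side of the saline libraries. The cause was not tested.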

How the results depend on the processing

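No value among the 32 genes that was called changed its sign under any setting run. Counts of calls that moved by over 1.5 times were the following, with the count of the report first. The shares of all genes called are not given beside these counts. For OVA against saline in prophylactic OT-I cells (5) they were 0 in batch 2 alone, 0 without libraries rich in B cell signal, 2 without the OT-I libraries with Cd4, and 1 to 6 with single libraries left out. For pGal against saline in the same cells (3) they were 0 in batch 1 alone, 5 in batch 2 alone, 6 with DESeq2, 0 without B cell signal, 1 without Cd4, and 0 to 4 with single libraries left out. For pGal against saline in prophylactic OT-II cells (9) they were 0 in batch 2 alone, 15 with DESeq2 and 5 to 14 with single libraries left out; for pGal against OVA there (0) they were 2 in batch 1 alone, 1 with DESeq2, 2 without B cell signal and 0 to 2 with single libraries left out. The interaction for pGal against OVA (0) gave 1 with DESeq2 and 1 without B cell signal, and that for pGal against saline (0) gave 1 with DESeq2, 1 with DESeq2 size factors and 1 without B cell signal; single libraries gave 0 to 1 in both. In the therapeutic experiment DESeq2 gave 2 for OVA (0) and 1 for pGal (0) against saline in OT-II cells, and libraries as labelled gave 0 for the cell types (8). Between experiments, OT-I cells (15) gave 6 as labelled and 3 with batch 2 alone, and 11 to 15 with single prophylactic libraries left out; OT-II cells (8) gave 13 with DESeq2, 3 with batch 1 alone, 1 with batch 2 alone, 2 without B cell signal and 5 to 6 with single prophylactic libraries left out. Single therapeutic libraries were not left out in turn. Settings that leave fewer libraries have less power, and which of the differences this accounts for was not tested.

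The labels do not state that replicate numbers pair libraries. Between treatments the median correlation of same-numbered deviations was -0.022 to -0.007, and that of other numbers 0.01 to 0.043. Between cell types the same-numbered median was 0.098 (prophylactic) and 0.197 (therapeutic), and that of other numbers -0.043 and -0.016. Same-numbered pairs of the cell types ran from -0.123 to 0.294 and from -0.17 to 0.694. Whether they came from the same mice was not tested, and the main cell type contrasts were fitted without pairing. With a replicate block the counts were 3 for OVA and 1 for pGal against saline in prophylactic OT-I cells, 7 for pGal in OT-II cells, and 1 in each cell type between experiments. Between experiments the block joined libraries that share only a replicate number, across experiments and batches, so that count does not speak to pairing. Blocked counts between the cell types are not given here. The therapeutic OT-I contrasts without B cell signal were not run, since whole groups fall away. Leaving out therapeutic libraries with over 17000 genes detected, a setting chosen after seeing the data, gave 0 calls in every therapeutic treatment contrast, 9 between the cell types and 10 between experiments in OT-II cells. Depth weighs most on genes with few counts, of which Hk2, Slc16a3 and Aldoc were the lowest per kilobase.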

Other observations

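Some other genes of nutrient uptake and the hypoxia response were called in the therapeutic treatment contrasts, where none of the 32 was. For OVA against saline in OT-II cells Slc43a1, a carrier of large neutral amino acids, rose by 3.39 on the log2 scale (SE 0.554, edgeR adjusted p = 0.00363), the iron carrier gene Slc11a2 rose by 1.35 (SE 0.301, adjusted p = 0.0241), and Epas1, a relative of Hif1a, fell by 1.59 (SE 0.410, adjusted p = 0.0499). In prophylactic OT-II cells given pGal Slc11a2 rose by 0.50 (SE 0.121, adjusted p = 0.0175) and Epas1 fell by 2.04 (SE 0.341, adjusted p = 0.00197). P4ha1, a prolyl hydroxylase gene that responds to hypoxia, fell there by 0.67 against saline and by 0.52 against OVA (SE 0.084, adjusted p = 0.00883). The response of Sesn3, which holds back mTORC1, to pGal against saline differed between the cell types, OT-I minus OT-II, by -0.90 on the log2 scale (SE 0.196, edgeR adjusted p = 0.0189).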
